A study of Oryza sativa Indica Group with 2 samples.

Results

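The superoxide dismutase and catalase genes of rice were compared between chilled leaves of 2 indica breeding lines. They are 10 loci named by identifier, 7 of superoxide dismutases and 3 of catalases. A locus counted as found when the authors' deposited table held at least 1 coding-sequence model of it, and 5 of the 10 were found, with 9 models, among 3946 loci in all. Both are IRGA lines whose names share a long stem, and the labels give 1 the phenotype cold-tolerant and 1 the phenotype cold-sensitive. Seedlings of both were raised in a greenhouse, and at about 20 days, with 3 leaves, they spent 6 h at 10 °C in light of 40 µmol m-2 s-1. Leaves of 9 plants per line were pooled into 1 library, so there is no replicate, and no unchilled leaves were compared, so a response to cold cannot be read from these values.

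Superoxide dismutases turn superoxide, a reactive by-product of electron transport, into hydrogen peroxide and oxygen. The Cu/Zn enzymes act in the cytosol and the chloroplast, the Fe enzymes in the chloroplast and the Mn enzyme in the mitochondrion. Catalases break down hydrogen peroxide, mainly in peroxisomes, where photorespiration of leaves is a large source of it, and both families are known for their part in chilling stress because chilled leaves in light tend to form more superoxide.

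The table gives a fold change between the libraries without saying which line is the numerator. Library A here means the numerator and library B the denominator, and neither was tied to a line. Whole reads were recovered for both libraries, whose scaled sizes were 12846997 (A) and 12152372 (B), and levels are in RPM, which are reads scaled by that size. RPM is not corrected for gene length, so levels are compared between libraries and not between genes. Ratios are log2 of A over B with 95% exact counting intervals, which leave out the spread between plants. Per locus the table held a median of 626 reads, and its median log2 ratio over loci was -0.31. The leaf genes RBCS (LOC_Os12g17600) for Rubisco, CAB2R (LOC_Os01g41710) for a light-harvesting protein and RCA (LOC_Os11g47970) for Rubisco activase had 117136, 38870 and 699455 reads. Of the root genes Lsi1 and Lsi2, for silicon transporters, Lsi1 stood at 5.53 RPM in A against 8.64 in B, and Lsi2 and both listed glutelin genes of seeds were not in the table.

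Found were 3 of the 4 Cu/Zn superoxide dismutase genes, SODCC1 (LOC_Os03g22810), SODCC2 (LOC_Os07g46990) and SODCP (LOC_Os08g44770), and 2 of the 3 catalase genes, CATA (LOC_Os02g02400) and CATC (LOC_Os03g03910). Of all models the authors tested, 8.61% were in their table, a share of models and not of loci. With the authors' scaling all 5 found loci had the higher level in library B, and 0 had it in A. Of all loci of the table, 58.6% were higher in B and 41.4% in A. Their median log2 ratio was -0.42, beside -0.31 for all loci. The ratios ran from -0.96 for SODCP to -0.13 for SODCC1. None reached 1 log2, while 17.6% of the loci of the table were higher in B and 9.63% higher in A by at least that much. At 0.5 log2 or more, SODCP and SODCC2 were higher in B, a step that 38.8% of all loci passed in that direction.

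**Figure D1:**
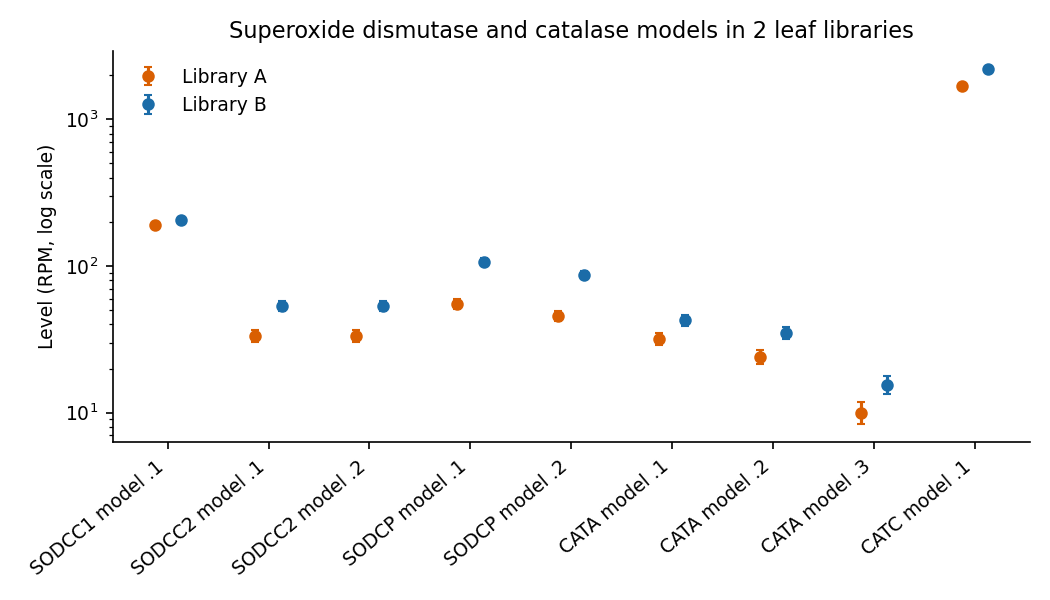
Level in RPM (log scale) of the 9 models of found superoxide dismutase and catalase loci in library A (orange) and library B (blue), with 95% exact Poisson intervals. Every pair has the higher point in B, from the close pair of SODCC1 at 189 and 207 RPM to SODCP model 1 at 55.0 and 107 RPM.

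SODCP encodes the Cu/Zn superoxide dismutase of the chloroplast, which acts next to the photosynthetic electron chain. It is on chromosome 8. Its model 1 had 707 reads in A and 1303 in B, which is 55.0 RPM (51.1 to 59.2) and 107 RPM (101 to 113). Library B was thus 1.95-fold higher (1.78 to 2.14), a log2 ratio of -0.96 (-1.10 to -0.83). Model 2 had 586 and 1051 reads, or 45.6 and 86.5 RPM, with a ratio of -0.92 (-1.07 to -0.78). The 2 models stood within each other's intervals, but they can share reads and are not separate measurements. In the authors' deposited table, from edgeR, the adjusted p of model 1 was 4.26e-46 and that of model 2 was 1.66e-34. These p-values rest on 1 library per line.

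SODCP was the found member farthest from equal levels. Of the 3946 loci, 749 (19.0%) had a lower ratio. Among the 1110 other loci with a read number within 2-fold of it, 48 (4.32%) had a lower ratio and the median was 0.16. In that range many loci hold read numbers within 1% of another locus in both libraries, and without such loci the share was 48 of 599 (8.01%) with a median of -0.27.

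SODCC2, on chromosome 7, encodes a Cu/Zn superoxide dismutase of the cytosol. Both of its models had 430 reads in A and 651 in B, the same pair of numbers, so they count as 1 measurement. The level was 33.5 RPM (30.4 to 36.8) in A and 53.6 RPM (49.5 to 57.8) in B. Library B was 1.60-fold higher (1.41 to 1.81), a log2 ratio of -0.68 (-0.86 to -0.50). The intervals of the 2 levels did not overlap. The authors' deposited table gives both models an adjusted p of 1.51e-12 from edgeR. Of 1400 other loci with like read numbers, 189 (13.5%) had a lower ratio, and without loci that match another the share was 22.5%.

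SODCC1, on chromosome 3, encodes the other named cytosolic Cu/Zn enzyme. Its 1 model had 2431 reads in A and 2510 in B, or 189 RPM (182 to 197) and 207 RPM (199 to 215). The excess in B was 9.15% (3.19 to 15.5), a log2 ratio of -0.13 (-0.21 to -0.05). Here the direction depended on scaling. Centring on the median of all models in the table turned the ratio to 0.18 (0.10 to 0.26). Scaling to the table's own total reads turned it to 0.074 (-0.01 to 0.16). Both used only the 5804 models in the table, whose adjusted p was under 0.05, of 67393 tested. Models near equal levels are mostly missing there, so neither gives a scale for the whole library. The adjusted p in the authors' deposited table was 0.0285 from edgeR, the highest of the 9 models. Of the 441 loci with 2000 to 5000 reads, SODCC1 had the smallest absolute ratio, but with 4941 reads it stood near the upper end of that range. Among the 478 other loci with a read number within 2-fold of it, 14 had a smaller absolute ratio.

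Of the superoxide dismutases, 4 were not in the table. They are SODA (LOC_Os05g25850), the Mn enzyme of the mitochondrion, the Fe superoxide dismutase loci LOC_Os06g05110 and LOC_Os06g02500, and the Cu/Zn locus LOC_Os03g11960. The largest adjusted p in the table was 0.0499, so a locus whose models missed 0.05 has no value here, and absence does not show equal levels. The smallest absolute log2 ratio in the table was 0.60 among 393 loci with 100 to 200 reads. It was 0.28 among 683 loci with 500 to 1000 reads and 0.08 among 172 with 5000 to 10000. What an absent gene could differ by thus depends on its reads, which are not known.

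CATC, on chromosome 3, is known as the catalase of leaf blades that removes peroxide from photorespiration. It had 21682 reads in A and 26655 in B in its 1 model and ranked 18 by reads among the 3946 loci. Its level was 1688 RPM (1665 to 1710) in A and 2193 RPM (2167 to 2220) in B. Library B was higher by 30.0% (27.6 to 32.3), a log2 ratio of -0.38 (-0.40 to -0.35). This is the narrowest interval of the 9 models, and the adjusted p in the authors' deposited table was 1.21e-178 from edgeR. Relative to the median of all models the ratio was -0.074 (-0.10 to -0.05). Of 51 other loci with like read numbers, 37 were higher in B and 16 had a lower ratio than CATC, with a median of -0.24.

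CATA, on chromosome 2, encodes a second catalase and had 3 models in the table. Model 1, with most reads, had 410 in A and 520 in B, or 31.9 RPM (28.9 to 35.2) and 42.8 RPM (39.2 to 46.6). Its log2 ratio was -0.42 (-0.61 to -0.23), an excess of 34.1% in B. Model 2 had 308 and 427 reads and a ratio of -0.55 (-0.77 to -0.34). Model 3 had 128 and 188 reads and a ratio of -0.63 (-0.97 to -0.30). The 3 models had the same direction and overlapping intervals, and the model with fewest reads had the lowest ratio. As with SODCP, the models can share reads and are not separate measurements. Their adjusted p-values in the authors' deposited table, from edgeR, were 0.000212, 9.90e-06 and 0.00230. Centred on the median of all models, model 1 stood at -0.12 with an interval that included 0 (-0.31 to 0.07). CATB (LOC_Os06g51150), known as a catalase of roots, was not in the table.

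**Figure D2:**
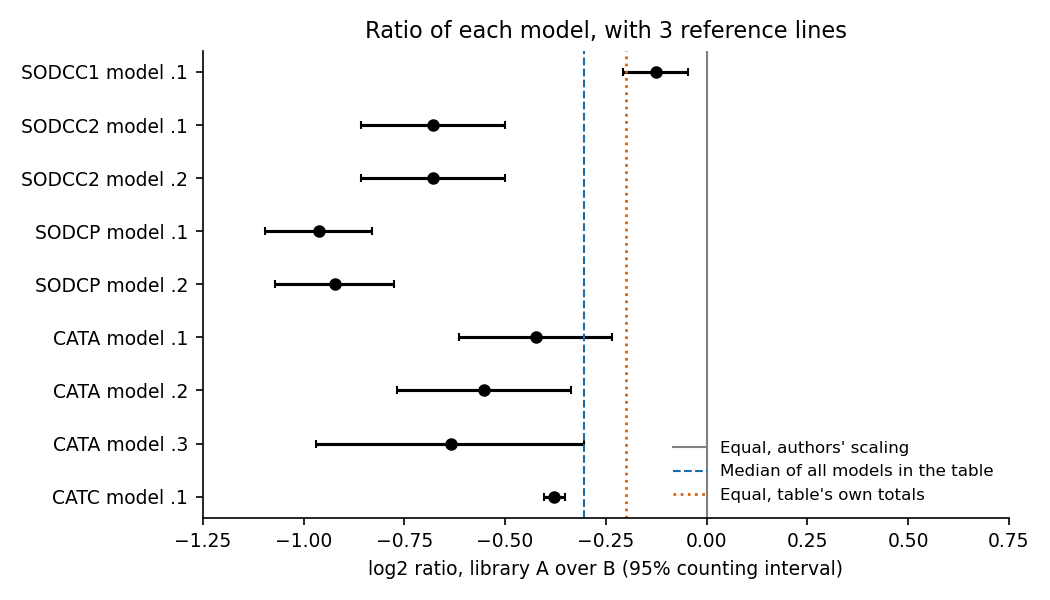
log2 ratio of library A over B (x axis) of the 9 models with 95% exact counting intervals. Lines mark equal levels under the authors' scaling (grey) and under the table's own totals (orange). The blue line is the median of all models in the table, -0.30. SODCP and SODCC2 lie wholly to the left of the 3 lines, CATC at -0.38 lies just left of the blue one, and SODCC1 at -0.13 lies between grey and orange.

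Differences between members do not depend on how the libraries are scaled, because a shift of scale moves every ratio alike. All 10 pairs of found loci were compared, each with a 99.5% normal-approximation counting interval so that the 10 together have 95%. In 7 pairs the interval left out 0. Each locus entered with its model of most reads. The count was not repeated with other models, such as those of CATA at -0.55 and -0.63, and may depend on that choice. Every locus compared had passed the authors' limit on p, which at lower read numbers keeps only larger ratios. The intervals do not allow for that selection, and its part in the differences was not tested. SODCP and SODCC1 were farthest apart. There were 29.1 reads of SODCP per 100 of SODCC1 in library A and 51.9 in library B, so that the log2 ratios differed by -0.84 (-1.06 to -0.61). The cytosolic pair also differed, with 17.7 reads of SODCC2 per 100 of SODCC1 in A and 25.9 in B, a difference of -0.55 (-0.83 to -0.28).

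Relative to CATC, SODCP was lower in A by a difference of log2 ratios of -0.58 (-0.78 to -0.39) and SODCC2 by -0.30 (-0.55 to -0.05). CATC and SODCC1 differed by -0.25 (-0.37 to -0.13), CATA and SODCC1 by -0.30 (-0.59 to -0.01) and SODCP and CATA by -0.54 (-0.87 to -0.21). The intervals included 0 for the 2 catalases, CATA minus CATC, at -0.04 (-0.31 to 0.23). They also did for SODCP minus SODCC2, at -0.28 (-0.60 to 0.03), and SODCC2 minus CATA, at -0.26 (-0.62 to 0.11). These intervals reach as far as -0.62 and do not show that the ratios were equal. They hold for these libraries and carry no replicate check.

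**Figure D3:**
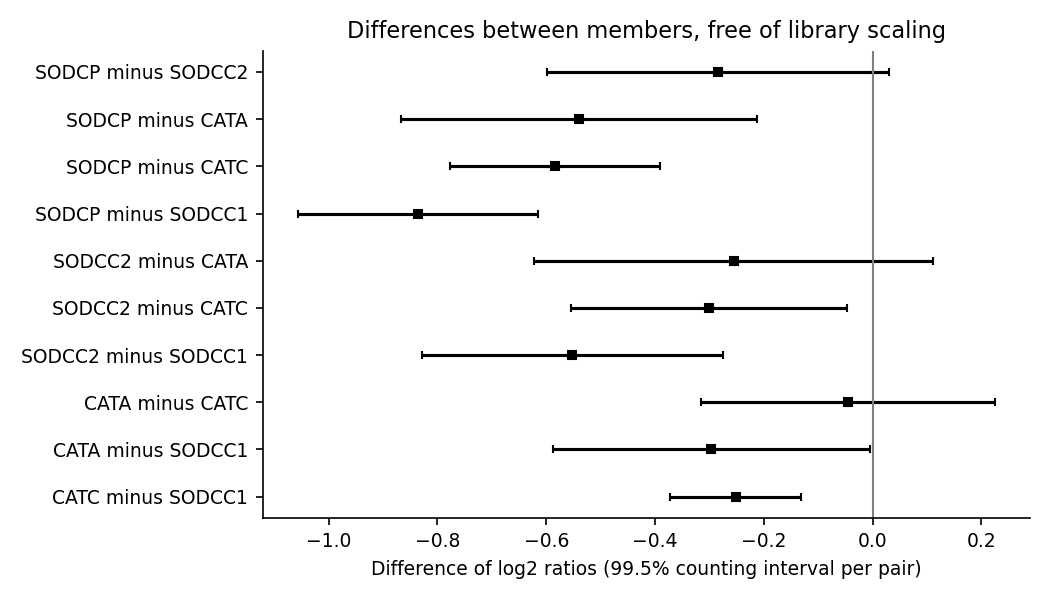
Difference of log2 ratios between each of the 10 pairs of found members (x axis), with 99.5% counting intervals per pair. The interval of SODCP minus SODCC1 at -0.84 lies farthest from 0, and the 3 pairs SODCP with SODCC2, SODCC2 with CATA, and CATA with CATC include 0.

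The leaf genes checked above did not move alike. RBCS, with 2886 RPM in A against 6588 in B, had a log2 ratio of -1.19, and CAB2R, with 936 against 2209 RPM, had -1.24, both below SODCP. RCA, with 27181 against 28822 RPM, stood at -0.08, which centring turned to 0.22. In pooled leaves, fewer cells of a type and less RNA per cell cannot be told apart. The part of such markers in the ratios of the superoxide dismutases and catalases was not tested.

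**Figure D4:**
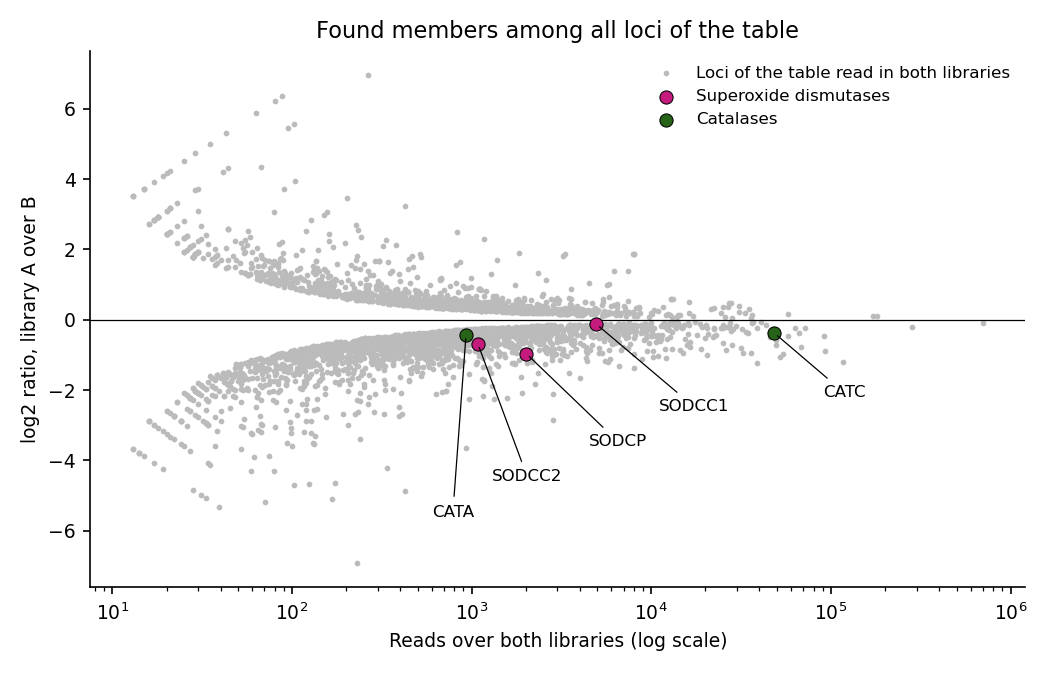
log2 ratio of library A over B against reads over both libraries (log scale) for the 3846 loci read in both, with the found superoxide dismutases (magenta) and catalases (green). Loci that missed the authors' threshold would fill the empty wedge around 0. SODCC1 sits on its lower edge, while SODCP lies below most loci of like read number.

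Genes that make or remove the same molecules were taken from lists by identifier, 45 genes in all. Of these, 24 were in the table. Being there means that a model passed the authors' limit on p, as 8.61% of all models tested did, a share of models and not of loci. That limit keeps smaller ratios at higher read numbers. The part of read number in this count, and in the counts found per list below, was not tested. With the authors' scaling 20 of the 24 were higher in B and 4 were higher in A, with a median log2 ratio of -0.53 beside -0.31 for all loci. The split became 15 to 9 after centring and 19 to 5 when the table's own totals set the scale. No share of all loci was computed for these rescaled counts, nor for those of the lists below. Centring by construction sets the models in the table evenly about equal levels. With the authors' scaling, 58.6% of all loci were higher in B. By at least 1 log2, 4 of the 24 were higher in B and 0 in A, where the shares over all loci were 17.6% and 9.63%, so the count in B was near that of the table. Most of the 4 had few reads, with 10, 52 and 65 over both libraries, while the other had 1163. The smallest absolute log2 ratio among loci of the table with 50 to 100 reads was 0.89. Among sources of superoxide, 1 of 9 NADPH oxidase genes was found. It was RBOHB (LOC_Os01g25820), at 42.3 RPM in A against 61.5 in B, for a ratio of -0.54 (-0.70 to -0.38). Of 5 glycolate oxidase genes, whose enzymes make the peroxide that catalase removes in photorespiration, 1 was found. This was GLO1 (LOC_Os03g57220), at -0.15, which turned to 0.15 when centred and to 0.05 with the table's totals. CCS (LOC_Os04g48410), for the chaperone that loads copper into Cu/Zn superoxide dismutase, was not in the table.

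Ascorbate peroxidases, which remove hydrogen peroxide outside the peroxisome matrix, had 6 of 8 genes in the table, 4 higher in B and 2 higher in A, with a median of -0.23. After centring the split was 2 and 4. The 3 with most reads were APX2 (LOC_Os07g49400) at -0.25, APX4 (LOC_Os08g43560) at 0.08 and APX8 (LOC_Os02g34810) at -0.52 (-0.58 to -0.46). APX2 turned to 0.06 when centred. All 5 peroxiredoxin genes found, of 7 listed, were higher in B under each of the 3 scalings, with a median of -0.58. The scalings shift every ratio alike, so they are not separate checks. Of all loci, 58.6% were higher in B under the authors' scaling. Among the peroxiredoxins BAS1 (LOC_Os02g33450), for the thiol peroxidase of the chloroplast stroma, stood at 356 RPM in A against 517 in B, for a ratio of -0.54 (-0.59 to -0.48). PRXIIC (LOC_Os01g48420) stood at -0.48 (-0.54 to -0.41) and LOC_Os06g09610, which RefSeq did not name, at -0.77 (-0.86 to -0.69).

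The loci listed as glutathione peroxidases were found in 4 of 5 cases, 4 higher in B under the authors' scaling and 3 after centring, with a median of -0.45. They rest on field knowledge, since the RefSeq gene table did not name them. The 3 with most reads were LOC_Os06g08670 at -0.26, which turned to 0.05 when centred, LOC_Os04g46960 at -0.53 and LOC_Os02g44500 at -0.38. Of 10 genes listed for the recycling of ascorbate and glutathione 7 were found, 5 higher in B and 2 in A, with a median of -0.58, and 4 against 3 after centring. For both lists the share of all loci higher in B under the authors' scaling was 58.6%. The 3 recycling genes with most reads differed in direction. LOC_Os09g39380, which RefSeq did not name, had the most and stood at -0.58 (-0.66 to -0.51), and LOC_Os05g02530, also not named there, stood at -0.86 (-0.95 to -0.78). MDAR2 (LOC_Os02g47800), for a monodehydroascorbate reductase, was higher in A, at 220.2 RPM in A against 203 in B, for a ratio of 0.12 (0.04 to 0.20). Its neighbour listed as MDAR1 (LOC_Os02g47790), named after its values were seen, had 0 reads in A and 10 in B.

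**Figure D5:**
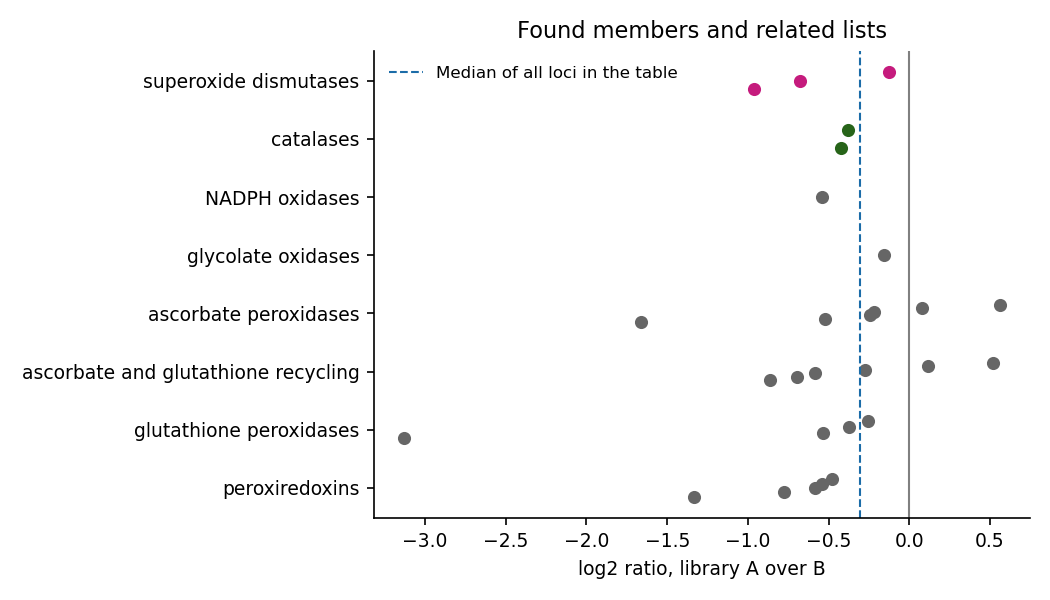
log2 ratio of library A over B (x axis) of the found superoxide dismutases (magenta), catalases (green) and genes of the related lists (grey), each point 1 locus, with the median of all loci, -0.31, as a dashed line. MDAR1, with 0 reads in A, is not drawn. The 2 catalases lie near the dashed line at -0.38 and -0.42, and the 3 superoxide dismutases spread from -0.96 to -0.13.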

How the data were processed

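Poly-A RNA of 2 libraries was read as single ends of 100 bp, per the labels' protocols. The submitters' processing notes name Bowtie 0.12.7 and edgeR. The genome build, annotation release, strand use and handling of multiple matches were not given in the sources used here. Family members may share reads, and the 2 lines may have aligned unequally. Per the file headers, the authors deposited a mean log2 share of reads, a log2 fold change, p-values and adjusted p-values per coding-sequence model, for 5804 models. Adjusted p over p, times rank, shows that 67393 models were tested.

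Both log2 columns were solved for each library's share, and all read pairs were whole within 0.01 of a read (100%). This was checked on simulated data. The deposited units left no count model to fit, and with 1 library per line no test between the lines was run. Intervals are 95% exact, Poisson for levels and Clopper-Pearson for ratios, and those of pairs are 99.5% normal-approximation intervals. All cover counting error only, so a pair interval that leaves out 0 is not a test between the lines. The model with most reads stands for a locus. "Like read number" means within 2-fold.

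The members and lists were chosen with earlier results of these data known. Named were every member and model, and of each list the 3 genes with most reads, or all found if fewer; MDAR1, APX7 and PRXIIE-2 were named after their values were seen. Names were matched to RefSeq synonyms of assembly ASM3414082v1 by chromosome and relative position, for 6 of 10 members (largest distance 1.80% of a chromosome) and 24 of 45 list genes. CATC, the Fe enzymes, LOC_Os03g11960 and the other genes rest on field knowledge. Alternatives were other scalings, pseudocounts of 1 and 0.1 RPM, another model per locus, another fold and a stricter p. Python 3.11.15 with numpy 2.4.6, scipy 1.17.1 and pandas 2.3.3 was used.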

Additional observations from a re-analysis of the deposited data

How the results depend on the processing

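Scaling moved the ratios most. Centring on the median of all models changed SODCP to -0.66, SODCC2 to -0.37, CATA to -0.12, CATC to -0.074 and SODCC1 to 0.18, and the median of the found members to -0.12. The table's own total reads gave -0.76, -0.48, -0.22, -0.18 and 0.074 in the same order, with a median of -0.22. Only SODCC1 thus changed direction, since both scalings shift every ratio alike towards A. Both rest only on models under the authors' limit on p and give no scale for the whole library. With the model with fewest reads, CATA and the median of the found members stood at -0.63. SODCP, at -0.92, stayed within its counting interval. The other loci could not move, since SODCC1 and CATC had 1 model each and both SODCC2 models had the same reads. Pseudocounts of 1 and 0.1 RPM left all 5 ratios within those intervals. At 0.5 log2 in place of 1, 2 members in place of 0 were higher in B. An adjusted p under 0.01 in the authors' deposited table kept 4 of the 5 loci and lost SODCC1. The share of all loci kept at that limit was not computed. Centring raised the related genes higher in A from 4 to 9, and the matching share of all loci was not computed. The comparison without loci that match another was chosen after seeing the data. No paired analysis was possible because each line has 1 library. Depth limits CATA and SODCC2 most, and absent genes have no value.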

Other observations

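Genes for chloroplast enzymes that act with or after the chloroplast superoxide dismutase were picked out after their values had been seen. APX7 (LOC_Os04g35520), for the ascorbate peroxidase of the stroma, with 373 reads in library A against 239 in B, had a log2 ratio of 0.56 (0.32 to 0.80), opposite in direction to SODCP at -0.96. PRXIIE-2 (LOC_Os02g09940), for a chloroplast peroxiredoxin, with 344 against 819 reads, stood at -1.33 (-1.52 to -1.15). APX8, for the thylakoid ascorbate peroxidase, at -0.52 and BAS1 at -0.54 lay between them. Centring changed no direction among these 4, and APX7 stood at 0.87 after it.

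Loci next to the members in the table were compared by order of locus number, 5 on each side. Of the 10 around SODCP, 8 were higher in library B, with a median log2 ratio of -0.61 and a range of -1.14 to 0.38. Around SODCC2 7 of 10 were higher in B, with a median of -0.35, and around SODCC1 6 of 10, with a median of -0.31. Around CATC and CATA 5 of 10 were higher in B, with medians of -0.004 and -0.10. Of all loci of the table, 58.6% were higher in B and the median was -0.31, so these counts lie on both sides of that share. These loci are neighbours in the table and not along the chromosome, since loci above the authors' limit on p are missing from it.

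Read numbers within 1% of a member's in both libraries were held by 1 other locus for CATA (LOC_Os01g49740) and 1 for SODCC1 (LOC_Os02g52260), and by 0 for the other 3. Such a partner was found for 1427 loci in all.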
